A study of Felis catus with 15 samples.

Results

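Prostaglandin synthesis and signalling in the domestic cat (Felis catus) epididymis was followed through 8 genes, chosen by symbol and matched to the NCBI gene identifiers of the count table: PTGS1, PTGS2, PTGES, PTGDS, HPGD, PTGER2, PTGER4 and SLCO2A1. All 8 were found among the 38995 genes of the table, and 7 of them were among the 18038 genes that had enough counts to be tested. HPGD was not. The 15 RNA-seq libraries of the corpus, which lies midway along the epididymis, formed 3 groups of 5: explants cultured with extracellular vesicles (labelled culture+EVs, code D3EV), explants cultured without added vesicles (culture, code D3), and fresh tissue that was not cultured (fresh, code D0). The vesicles came from the caput, where sperm enter the epididymis. The labels state no strain, age, vesicle dose or number of days, nor whether a replicate number is 1 animal, so the spread that p-values measure may be partly technical. The stated question was what caput vesicles do to the transcriptome of corpus explants.

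Prostaglandins are short-lived lipid signals made from arachidonic acid, which phospholipases free from membranes. The cyclooxygenases PTGS1, usually constitutive, and PTGS2, usually induced by cytokines, growth factors and injury, convert it to prostaglandin H2, and terminal synthases such as PTGES (prostaglandin E2) and PTGDS (prostaglandin D2) make the final products. SLCO2A1 takes prostaglandins back into cells, HPGD begins their breakdown, and PTGER2 and PTGER4 are the prostaglandin E2 receptors that raise cyclic AMP. In the epididymis of other mammals prostaglandins are linked to duct contractility and epithelial fluid secretion, and PTGDS is also a secreted lipid carrier of the duct fluid.

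Total counts were 17308832 to 27420218 per library in culture+EVs, 19308190 to 25454399 in culture and 17751507 to 24841100 in fresh tissue. Library 3 of the culture group (culture 3) stood apart: the 13 mitochondrially encoded protein genes took 0.179% of its counts, and 6.23% to 7.48% of those of the remaining culture libraries. Calls of the 8 genes and of the pathway genes named below that change without culture 3 are given both ways. Of markers of principal cells, the main absorptive and secretory cells of the duct, all 8 were detected, and their summed level was 2164 to 3547 CPM in culture+EVs, 1005 to 3303 in culture and 18179 to 22106 in fresh tissue. CPM are counts scaled to a common library size after TMM (trimmed mean of M values) scaling. Because transcript lengths were not used, levels are compared between libraries and not between genes.

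In cultured explants transcripts of the inducible arm of prostaglandin E2 synthesis (PTGS2 and PTGES) were higher than in fresh tissue, and those of PTGDS were lower. Transcripts of the uptake carrier SLCO2A1 and the receptor PTGER4 were higher. Protein levels, prostaglandin levels and transport were not measured. Both cultures gave the same counts: 4 of the 7 tested genes rose and 1 fell, while PTGS1 and PTGER2 missed the threshold. These counts come from the fit with group as the only term. With the replicate number as a block, PTGS1 was called lower in culture+EVs against fresh tissue (edgeR adjusted p = 0.0322). Over all 18038 genes, 52.9% were called in culture+EVs against fresh tissue and 54.3% in culture against fresh tissue, so a call by itself is common here and the sizes carry the description. Both comparisons use the same 5 fresh libraries. Cultured and fresh libraries did not overlap for PTGS2, PTGES, PTGDS, SLCO2A1 and PTGER4. The same held for 49.2% of all genes in culture+EVs and 40.5% in culture. In culture+EVs against culture 0 of the 7 were called, as were 0% of all genes.

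PTGS2 (gene 100126581) changed most of the 8. It had 35.5, 167, 92.9, 30.6 and 99.9 CPM in culture+EVs libraries 1 to 5, 33.2, 67.5, 24.9, 41.9 and 138 CPM in culture, and 3.20, 1.28, 1.5, 7.85 and 0.876 CPM in fresh tissue. Every cultured library was above every fresh one, and fresh 4 was the highest of the fresh tissue. It rose 29.3-fold in culture+EVs against fresh tissue (log2 fold change 4.87 ± 0.72, SE, n = 5 per group; edgeR adjusted p = 4.52e-05) and 21.0-fold in culture against fresh tissue (4.39 ± 0.71, adjusted p = 9.58e-05). Among the 18038 genes these were the 274th and the 359th largest log2 fold changes. Without fresh 4 the values were 5.63 and 5.15, over 1.5 times higher on the linear scale.

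**Figure D1:**
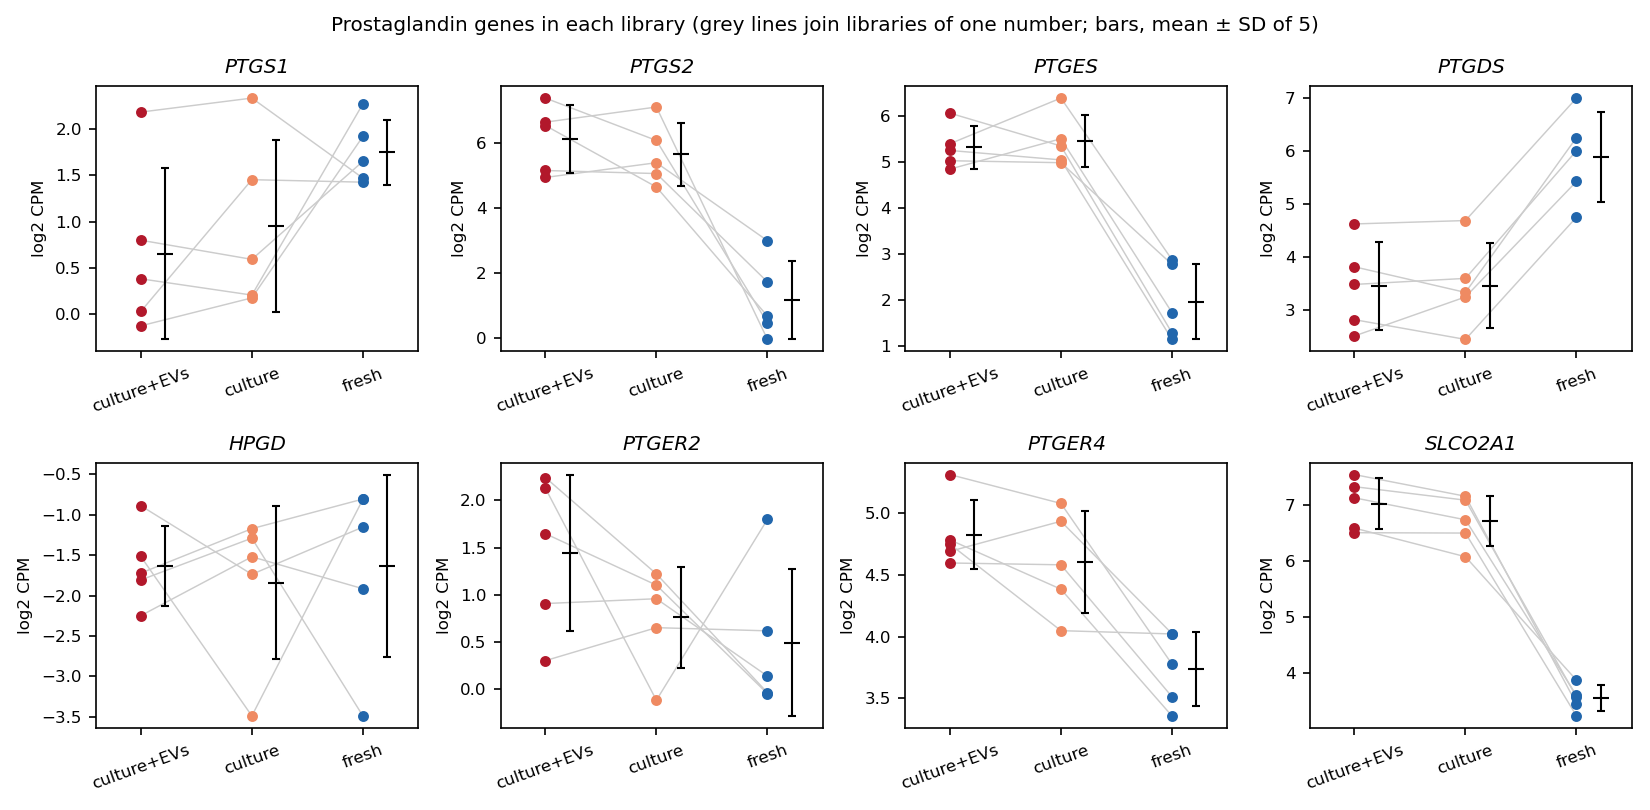
Log2 CPM (y axis, own scale per gene) of the 8 genes in each library, by group (x axis); points are libraries, grey lines join libraries with the same number, and black bars are mean ± SD of 5. PTGS2, PTGES, PTGER4 and SLCO2A1 are higher in every cultured library than in every fresh one, and PTGDS is lower in every cultured library.

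PTGS1 (gene 101092557), the other cyclooxygenase, did not follow PTGS2. Its levels were 1.21, 1.65, 0.931, 0.826 and 4.45 CPM in culture+EVs, 1.06, 1.42, 2.65, 1.04 and 4.95 CPM in culture, and 4.74, 3.05, 2.60, 3.69 and 2.68 CPM in fresh tissue. Number 5 had the highest level in both cultures, and the groups overlapped. The log2 fold change was -0.90 ± 0.52 in culture+EVs against fresh tissue (edgeR adjusted p = 0.158) and -0.60 ± 0.51 in culture against fresh tissue (adjusted p = 0.339). With the replicate number as a block the first was called (-1.23, adjusted p = 0.0322), as it was without culture+EVs 5 (-1.55, adjusted p = 0.0138). With limma-voom both were called, at -1.25 (adjusted p = 0.0128) and -1.20 (adjusted p = 0.0314). The balance of the pair, taken in each library as log2 CPM of PTGS2 minus that of PTGS1, was 4.46 to 6.59 in culture+EVs, 3.19 to 5.49 in culture and -1.52 to 1.07 in fresh tissue, with the lowest cultured value in culture 3. Because transcript lengths were not used, only its shift between libraries can be read, not its sign or size in 1 library.

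PTGES (gene 101086187) is the inducible, membrane-bound prostaglandin E synthase, which works downstream of PTGS2. It had 32.8, 67.2, 42.3, 38.3 and 28.9 CPM in culture+EVs, 31.8, 40.9, 84.3, 33.1 and 45.6 CPM in culture, and 6.80, 2.37, 7.31, 2.14 and 3.25 CPM in fresh tissue. Cultured and fresh libraries did not overlap, and culture 3 had the highest level of all 15. PTGES rose 9.54-fold in culture+EVs (log2 3.25 ± 0.40, edgeR adjusted p = 8.51e-06) and 10.7-fold in culture (3.42 ± 0.41, adjusted p = 5.52e-06), both against fresh tissue.

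PTGDS (gene 493852) went the other way. It had 11.1, 24.7, 14.0, 5.63 and 6.99 CPM in culture+EVs, 12.1, 25.8, 10.02, 9.44 and 5.38 CPM in culture, and 64.4, 128, 76.5, 43.1 and 27.0 CPM in fresh tissue. All 5 fresh libraries were above all 10 cultured ones, and number 2 was the highest in each of the 3 groups. PTGDS fell 5.43-fold in culture+EVs (log2 -2.44 ± 0.50, edgeR adjusted p = 0.000775) and 5.41-fold in culture (-2.44 ± 0.50, adjusted p = 0.000767). Its same-numbered differences from fresh tissue lay between -2.92 and -1.93 in culture+EVs and between -2.92 and -2.18 in culture, a narrower range than the levels themselves. The -2.92 in culture was that of number 3, whose pairing between culture and fresh tissue was not borne out. The 8 principal cell markers fell with PTGDS, 7 called lower in culture+EVs and 8 in culture, against 25.5% and 25.6% of all genes. Their part in the PTGDS result was not tested. In bulk tissue, fewer cells of a type and less RNA per cell cannot be told apart.

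SLCO2A1 (gene 101087090), the prostaglandin uptake carrier, had the smallest adjusted p of the 8. Levels were 96.4, 140, 187, 91.1 and 161 CPM in culture+EVs, 67.6, 107, 143, 90.6 and 136 CPM in culture, and 14.5, 12.0005, 10.8, 9.29 and 11.8 CPM in fresh tissue. The lowest cultured library was far above the highest fresh one. It rose 11.6-fold in culture+EVs (log2 3.53 ± 0.25, edgeR adjusted p = 4.20e-08) and 9.31-fold in culture (3.22 ± 0.25, adjusted p = 9.12e-08). The carrier is known from vascular endothelium as well as epithelium. Of 8 endothelial markers 5 were called higher and 0 lower in each culture against fresh tissue. Not called in either were VWF (log2 -0.06 in culture+EVs and 0.21 in culture), EMCN (-0.45 and -0.76) and CLDN5 (0.84 and 1.20). Of all genes, 27.4% were called higher and 25.5% lower in culture+EVs, and 28.7% and 25.6% in culture. None of the 8 markers was at 0 in all libraries, and their summed level was 362 to 796 CPM in culture+EVs, 448 to 625 in culture and 259 to 343 in fresh tissue. Their median log2 fold change was 0.99 in culture+EVs and 1.06 in culture, and their part in the SLCO2A1 result was not tested.

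HPGD (gene 101087832) oxidises prostaglandins to inactive products. It was near the limit of detection in this tissue, with 3 to 8 counts per library in culture+EVs, 0 to 9 in culture and 0 to 12 in fresh tissue, or 28, 26 and 34 counts over the 5 libraries of each group. In a fit without the low-count filter its log2 fold change was -0.26 (95% interval -2.04 to 1.52) in culture+EVs and -0.36 (-2.15 to 1.43) in culture, both against fresh tissue. At this depth the data did not exclude a change within those intervals.

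The receptors PTGER2 and PTGER4 both signal through cyclic AMP, and 1 of them passed the test. PTGER4 (gene 100169968) had 24.1, 27.5, 26.8, 39.7 and 25.8 CPM in culture+EVs, 23.9, 20.8, 16.5, 33.7 and 30.5 CPM in culture, and 10.2 to 16.2 CPM in fresh tissue. The groups did not overlap, though culture 3 was only just above the highest fresh library. PTGER4 rose 2.13-fold in culture+EVs (log2 1.09 ± 0.21, edgeR adjusted p = 0.000520) and 1.86-fold in culture (0.90 ± 0.21, adjusted p = 0.00233).

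PTGER2 (gene 100169967) had lower counts and overlapping groups. Its levels were 1.78, 4.65, 4.29, 1.14 and 3.04 CPM in culture+EVs, 1.85, 2.24, 0.831, 1.48 and 2.06 CPM in culture, and 1.01, 0.883, 3.39, 1.44 and 0.876 CPM in fresh tissue. Fresh 3 was above all 5 culture libraries. The log2 fold change was 0.97 ± 0.47 in culture+EVs (edgeR adjusted p = 0.0943) and 0.15 ± 0.47 in culture (adjusted p = 0.801). Without fresh 3 the culture+EVs value was called (1.5, adjusted p = 0.0107), as it was without culture+EVs 4 (1.16, adjusted p = 0.0451) and with limma-voom (1.04, adjusted p = 0.0439).

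The wider pathway was read from 26 other genes of prostanoid release, synthesis, transport, breakdown and reception, of which 23 had a matching symbol and 20 were tested. PLA2G10, a secreted phospholipase, was at 0 counts in all 15 libraries, and HPGDS and PTGDR were too low to test. In culture+EVs 9 of the 20 rose and 6 fell, with 5 not called (median log2 fold change 0.59, against 0.01 over all genes tested). In culture 10 rose and 5 fell, with 5 not called (median 0.48, against 0.04 over all genes). The shares of all genes called higher were 27.4% and 28.7%, and lower 25.5% and 25.6%, in the same order.

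Transcripts of the phospholipases that free arachidonic acid went in both directions. PLA2G4A (gene 101082033), the cytosolic phospholipase that supplies the cyclooxygenases, averaged 119 ± 24.1 CPM in culture+EVs, 114 ± 27.4 in culture and 27.2 ± 7.62 in fresh tissue (SD, n = 5 each), a rise of 2.13 ± 0.22 and 2.06 ± 0.21 on the log2 scale (edgeR adjusted p = 1.13e-06 and 1.56e-06). PLA2G6 (gene 101095350), a calcium-independent phospholipase, averaged 24.2 ± 2.72 CPM in culture+EVs, 27.1 ± 4.29 in culture and 63.1 ± 9.47 in fresh tissue (log2 -1.38 ± 0.14 and -1.22 ± 0.14, adjusted p = 1.39e-06 and 4.60e-06). PLA2G5, a secreted phospholipase, had only 0 to 10 counts per fresh library and rose by 2.28 ± 0.74 and 2.62 ± 0.75 (adjusted p = 0.0175 and 0.00793), the second being 1.69 without culture 3. Cultured and fresh libraries did not overlap for these 3 genes.

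**Figure D2:**
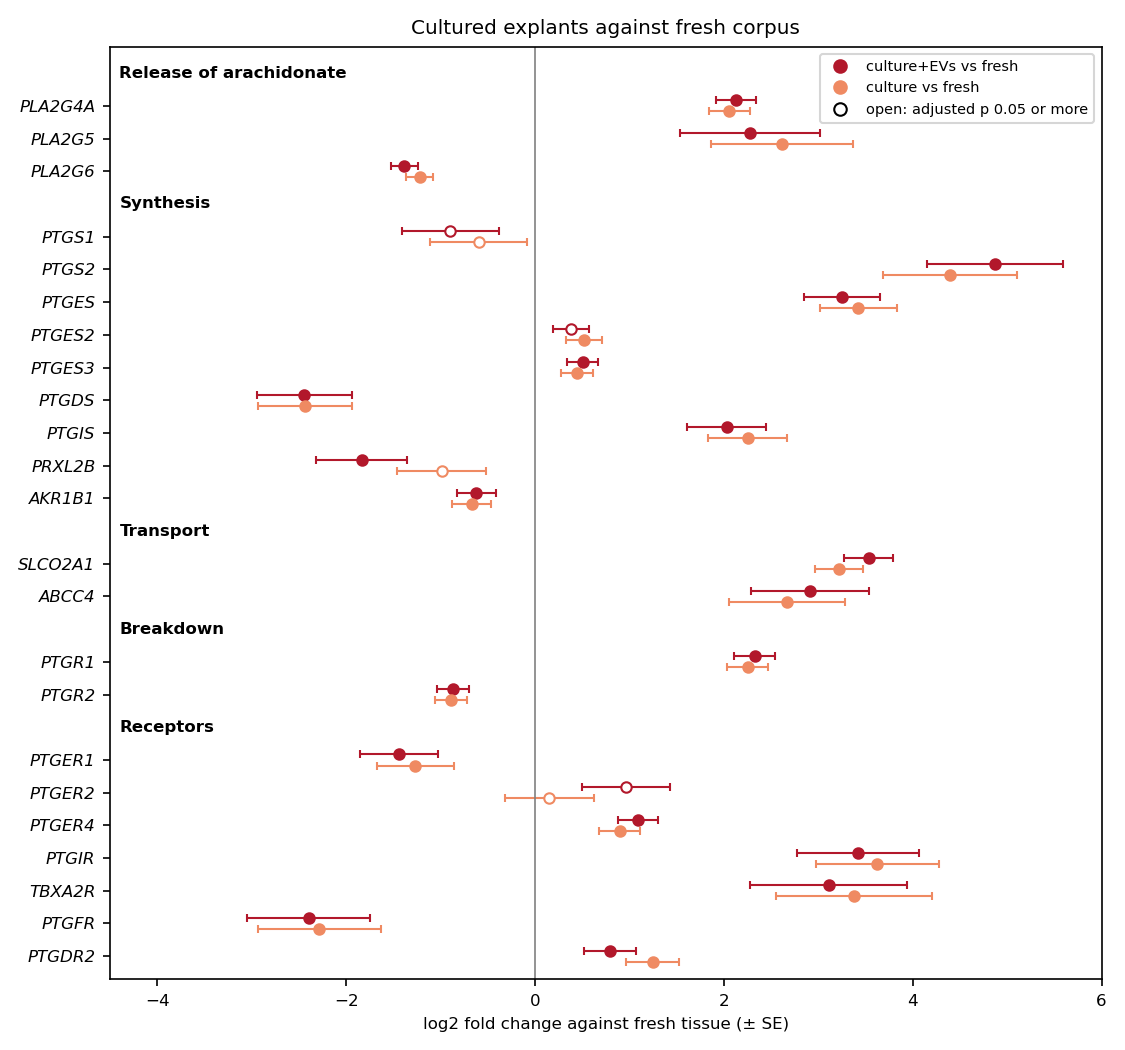
Log2 fold change against fresh tissue (x axis, ± SE, n = 5 per group) of the tested genes and the called pathway genes, by role; filled points have an edgeR adjusted p under 0.05 over all 18038 genes. PTGS2 lies furthest right, and PTGDS and PTGFR furthest left.

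Beyond PTGES, transcripts of the other terminal enzymes of the list went in both directions. PTGIS (gene 101082050), which makes prostacyclin and is best known from blood vessels, averaged 90.7 ± 54.3 CPM in culture+EVs, 106 ± 50.7 in culture and 22.2 ± 8.67 in fresh tissue, and rose by 2.03 ± 0.42 and 2.25 ± 0.42 on the log2 scale (edgeR adjusted p = 0.000804 and 0.000361). PRXL2B, a prostaglandin F synthase, had -1.83 ± 0.48 in culture+EVs (adjusted p = 0.00475) and -0.99 ± 0.47 in culture (adjusted p = 0.0877). Culture 3 had 35.8 CPM of PRXL2B and the other cultures 4.27 to 11.04, and without it the culture value was called (-1.77, adjusted p = 0.000417). The constitutive prostaglandin E synthases PTGES2 and PTGES3, and AKR1B1, an aldose reductase that can make prostaglandin F2alpha, were named after their values were seen, as the remaining called enzymes. PTGES3 rose by 0.50 ± 0.17 and 0.45 ± 0.17 (adjusted p = 0.0201 and 0.0350) and AKR1B1 fell by 0.62 ± 0.20 and 0.67 ± 0.20 (adjusted p = 0.0186 and 0.0115), in culture+EVs and culture. PTGES2 was called in culture alone (0.52 ± 0.19, adjusted p = 0.0294; 0.38 ± 0.19 and adjusted p = 0.103 in culture+EVs). Next to the 3.25 and 3.42 of PTGES these shifts were small, and several calls were lost when 1 library was left out. In culture that of PTGES2 was lost without culture 3 (0.45, adjusted p = 0.05475), culture 4 or 5, or fresh 1, 3 or 5 (adjusted p of up to 0.0775), and that of PTGES3 without culture 1, 2, 4 or 5, or fresh 1, 2, 3 or 5 (up to 0.0839). In culture+EVs that of AKR1B1 was lost without fresh 2 or 4 (adjusted p = 0.0623 and 0.0521) and that of PTGES3 without fresh 1 (0.0526).

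Transcripts of transport and breakdown genes also changed, those for breakdown in both directions. ABCC4 (gene 101096129), an efflux pump that exports prostaglandins, rose by 2.91 ± 0.62 in culture+EVs and 2.67 ± 0.62 in culture on the log2 scale (edgeR adjusted p = 0.00110 and 0.00191). Its cultured libraries were uneven. Numbers 2, 4 and 5 had 148, 186 and 131 CPM in culture+EVs and 126, 161 and 109 in culture, whereas numbers 1 and 3 had 28.8 and 28.7 in culture+EVs and 27.7 and 19.6 in culture, with 11.6 to 18.4 CPM in fresh tissue. PTGR1 (gene 101093468), a reductase that acts on the product of HPGD, averaged 108 ± 24.8 CPM in culture+EVs, 102 ± 18.2 in culture and 21.4 ± 6.24 in fresh tissue (2.33 ± 0.22 and 2.25 ± 0.22, adjusted p = 4.76e-07 and 6.72e-07). PTGR2, a second reductase of that step, averaged 12.5 ± 1.28 CPM in culture+EVs, 12.3 ± 2.70 in culture and 22.8 ± 2.91 in fresh tissue, and fell by 0.86 ± 0.17 and 0.89 ± 0.17 (adjusted p = 0.000546 and 0.000445).

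**Figure D3:**
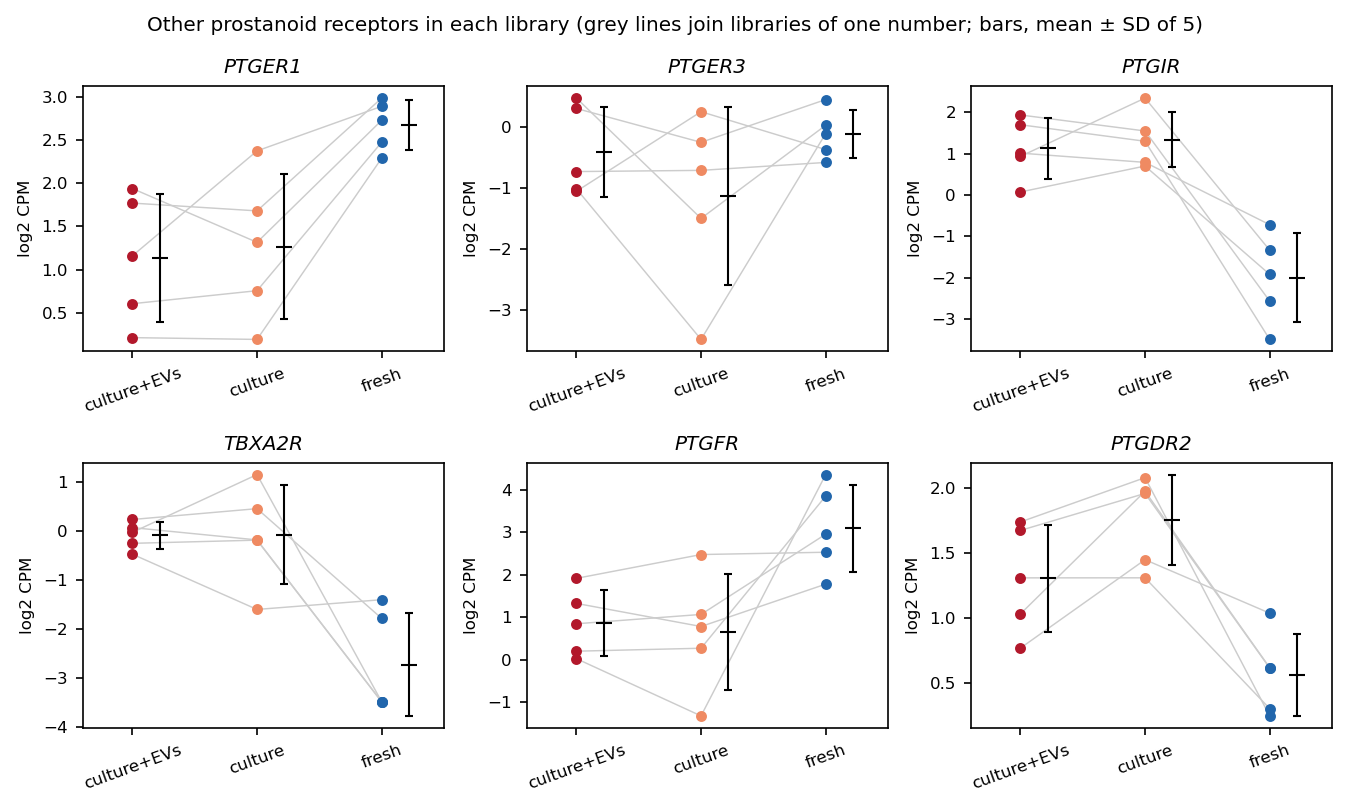
Log2 CPM (y axis, own scale per gene) of 6 other prostanoid receptors in each library, by group (x axis); points are libraries, grey lines join libraries with the same number, and black bars are mean ± SD of 5. PTGIR is higher in every cultured library than in every fresh one, PTGFR and PTGER1 are lower in most, and PTGER3 overlaps throughout.

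Among receptor transcripts outside the 8, those for prostacyclin and thromboxane were higher in culture and that for prostaglandin F2alpha was lower. PTGIR, the prostacyclin receptor, had 27 to 86 counts per library in culture+EVs, 39 to 96 in culture and 0 to 9 in fresh tissue (log2 3.42 ± 0.65 and 3.62 ± 0.65, edgeR adjusted p = 0.000407 and 0.000254). TBXA2R, the thromboxane receptor, had 16 to 25 counts in culture+EVs, 6 to 41 in culture and 0 to 5 in fresh tissue (3.11 ± 0.83 and 3.38 ± 0.83, adjusted p = 0.00519 and 0.00289; 3.87 and 4.15 without fresh 4). Culture and fresh tissue overlapped for TBXA2R on the CPM scale. Its lowest culture library had 0.240 CPM and its highest fresh library 0.289 CPM. The folds of PTGIR and TBXA2R rest on only 22 and 10 counts over the 5 fresh libraries, and how far they depend on the prior count of the fit was not tested.

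PTGFR (gene 493933), the contractile prostaglandin F2alpha receptor, had 1.71, 3.69, 0.931, 1.06 and 2.42 CPM in culture+EVs, 2.01, 5.49, 0.311, 1.12 and 1.63 CPM in culture, and 7.68, 5.70, 20.5, 14.4 and 3.35 CPM in fresh tissue. It fell by 2.39 ± 0.65 and 2.28 ± 0.65 on the log2 scale (edgeR adjusted p = 0.00601 and 0.00764), the second being -3.002 without culture 2, and was lower in 5 of 5 same-numbered pairs in each comparison although the groups overlapped. In culture against fresh tissue number 3 was the furthest apart for PTGFR (-5.68), and the pairing of that number was not borne out there. PTGDR2, a prostaglandin D2 receptor known from leukocytes, had 0.79 ± 0.28 in culture+EVs and 1.24 ± 0.28 in culture (adjusted p = 0.0252 and 0.00151), and the first reached 0.0752 without culture+EVs 1 and was also lost without culture+EVs 5, fresh 1 or fresh 3. PTGER1, a calcium-coupled prostaglandin E2 receptor named after its values were seen, fell by 1.44 ± 0.41 and 1.27 ± 0.41 (adjusted p = 0.00833 and 0.0166). PTGDR2 overlaps CCDC86 in the gene table. Since the strand setting of the counts is unknown, reads of overlapping genes may not have been told apart, and the values of PTGDR2 and PTGER1 are uncertain for that reason.

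Markers of other cell types were also compared between cultured and fresh tissue. Of all genes, 27.4% were called higher and 25.5% lower in culture+EVs, and 28.7% and 25.6% in culture. Of 8 macrophage markers 3 were called higher and 1 lower in culture+EVs, and 3 higher and 0 lower in culture, with summed levels of 62.3 to 121 CPM in culture+EVs, 69.5 to 159 in culture and 33.1 to 65.4 in fresh tissue. Of 6 tested basal cell markers 6 were higher in both, with 1926 to 5394 CPM in culture+EVs, 2351 to 6120 in culture and 591 to 725 in fresh tissue. KRT14, also on the basal cell list, had no matching symbol and is not among them. Of 7 smooth muscle markers 3 were higher and 0 lower in both (682 to 4371 CPM in culture+EVs, 1254 to 4519 in culture and 641 to 1658 in fresh tissue), and of 7 fibroblast markers 2 were higher and 1 lower in both (708 to 6348, 938 to 9124 and 482 to 1714 CPM in the same order). The share of fibroblast markers called higher was near that of all genes. Summed levels of smooth muscle and of fibroblast markers overlapped between cultured and fresh tissue. Those of macrophage markers overlapped between culture+EVs and fresh tissue but not between culture and fresh tissue. The median log2 fold change of the 8 macrophage markers was -0.21 in culture+EVs and 0.32 in culture. The macrophage markers called higher were CD14, CD68 and MRC1. Of 4 tested neutrophil markers 3 were higher in culture+EVs and 4 in culture, and the summed level of all 6, which rests on S100A8 and S100A9, was 441 to 1343 CPM in culture+EVs, 295 to 1463 in culture and 0.562 to 1.39 in fresh tissue. The other 2 were too low to test, and in a fit without the low-count filter CSF3R had a log2 fold change of -4.85 in culture+EVs (edgeR adjusted p = 0.0398) and -2.66 in culture (adjusted p = 0.202), and MPO 1.13 (adjusted p = 0.605) and 2.27 (adjusted p = 0.269). None of these markers was at 0 in all libraries, and their part in the prostaglandin results was not tested.

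The comparison of culture+EVs with culture asks what the vesicles add, and none of the 7 tested genes passed the threshold. The largest fitted difference of the 7 was that of PTGER2 (log2 0.81, 95% interval -0.17 to 1.80), followed by PTGS2 (0.48, -0.80 to 1.76) and SLCO2A1 (0.31, -0.17 to 0.80). The other 4 were PTGER4 0.20 (-0.25 to 0.65), PTGDS -0.01 (-1.03 to 1.02), PTGES -0.17 (-0.95 to 0.61) and PTGS1 -0.30 (-1.40 to 0.80). The edgeR adjusted p was 1 for each. Over all 18038 genes edgeR, DESeq2 and limma-voom each called 0, and 183 had an unadjusted edgeR p under 0.05. The groups overlapped for all 7 genes, and 0.0832% of all genes had groups that did not overlap.

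Same-numbered libraries differed widely for PTGS2. The log2 difference, culture+EVs minus culture, was 1.31 for number 2 and 1.90 for number 3, but 0.09, -0.45 and -0.47 for numbers 1, 4 and 5. PTGER2 was likewise furthest apart for numbers 2 and 3 (1.02 and 2.25), with -0.05, -0.35 and 0.55 for numbers 1, 4 and 5. Number 3 includes culture 3, the library that stood apart. With the replicate number as a block the fitted values were 0.60 for PTGS2 and 0.64 for PTGER2 (adjusted p = 0.967 for both). Leaving out 1 library at a time gave 0.07 to 1.01 for PTGS2 and 0.59 to 1.01 for PTGER2. SLCO2A1 was higher with vesicles in 5 of 5 pairs, by 0.01 to 0.51, and PTGER4 in 4 of 5. Across the 20 pathway genes the fitted differences ran from -0.85 for PRXL2B to 0.49 for PTGER3, with a smallest unadjusted edgeR p of 0.0927 and adjusted p of 1. Number 3 was the furthest apart for both PRXL2B (-2.11) and PTGER3 (2.47), and no value without culture 3 was taken for them here.

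**Figure D4:**
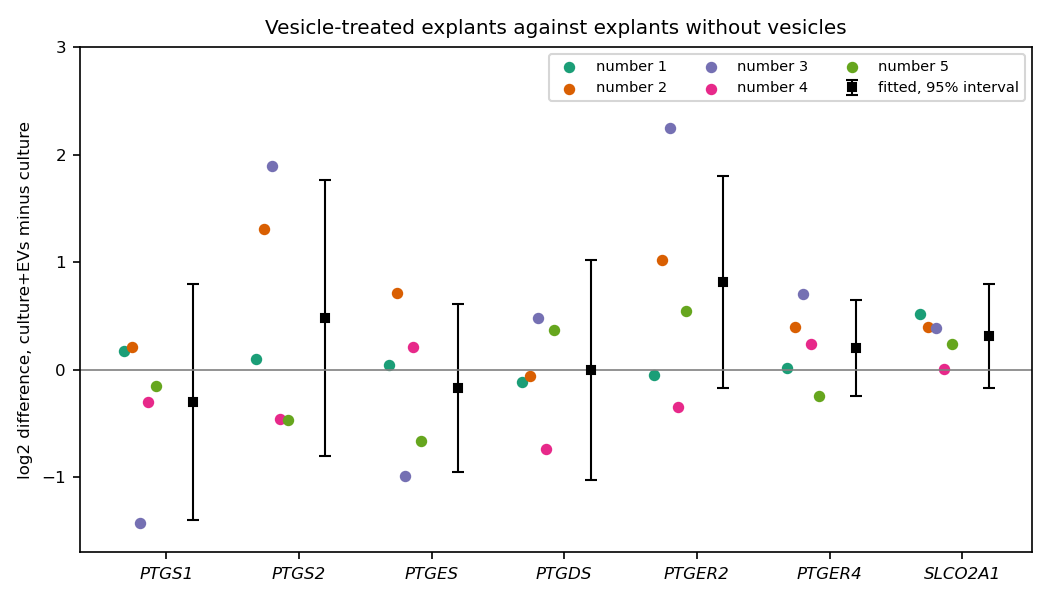
Log2 difference of culture+EVs minus culture (y axis) for the 7 tested genes (x axis); coloured points are same-numbered libraries (log2 CPM difference) and black squares the edgeR estimate with its 95% interval. All 7 intervals include 0, and the points of PTGS2 and PTGER2 for numbers 2 and 3 lie highest.

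Genes with the most similar profiles were sought for each of the 7 by the root mean square difference of log2 CPM over the 15 libraries, each gene centred on its own mean, among 14160 other tested genes with a symbol. Nearest to PTGS2 were STC1, a secreted glycoprotein hormone, at 0.68 and the chemokine gene MCP-1 at 0.69, against a spread of PTGS2 itself of 2.44. Nearest to PTGES were CENPM at 0.38 and S100A6 at 0.40 (own spread 1.71), to SLCO2A1 PHLDB2 at 0.25 and GRB10 at 0.31 (1.61), and to PTGDS ISM2 at 0.41 and IGF2 at 0.51 (1.37). CASP8 at 0.13 and ADIPOR2 at 0.17 were nearest to PTGER4 (0.56), CXCR4 at 0.37 and NETO2 at 0.42 to PTGER2 (0.76), and ITGB7 and SEPTIN4, both at 0.51, to PTGS1 (0.84). The libraries share the contrast of culture with fresh tissue, so these distances describe profiles and carry no test.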

How the data were processed

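Per the labels' protocols, Qiagen columns were used for RNA extraction and a TruSeq Stranded mRNA kit for the libraries. Tools listed in the submitters' processing notes, without roles, are StringTie 2.1.3b, Bowtie2 2.3.4.1, HISAT2 2.1.0 and Trimmomatic 0.38. Not given in the sources used here: genome build, annotation, counting program and strand setting. The values are raw counts per gene as deposited by the authors, not normalized. All 38995 identifiers were found in the RefSeq genes of assembly F.catus_Fca126_mat1.0, used for names and overlaps only; no sequence was used.

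Genes were filtered with filterByExpr (minimum count 10, minimum total 15; 18038 kept, 20957 left out), scaled by TMM and tested 2-sided with glmQLFit and glmQLFTest of edgeR 4.0.16 (R 4.3.3) on all 15 libraries with group as the only term (12 residual degrees of freedom). Calls needed an adjusted p (Benjamini-Hochberg, all genes tested) under 0.05. The SE was derived from the log2 fold change and F; 95% intervals use it with the test's degrees of freedom. Log2 CPM used a prior count of 2. The fit was tested on simulated data.

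The 8 genes, the lists and the tests were chosen with earlier results of these data known. Named pathway genes were the 12 called ones with the smallest adjusted p; 4 more called genes were named after their values were seen. Same-numbered libraries deviated together. Correlations of deviations from group means were 0.18 to 0.60 between culture+EVs and culture and 0.24 to 0.36 between culture+EVs and fresh tissue. These were taken as pairing by the titles' numbers. Between culture and fresh tissue number 3 was at 0.033, which was not. Number 3 was at 0.18 between culture+EVs and culture and at 0.30 between culture+EVs and fresh tissue. Whether culture 3 and fresh 3 are paired is therefore undecided. Alternatives were DESeq2 1.42.0, limma-voom (limma 3.58.1) with sample quality weights, upper-quartile and relative log expression scaling, no filter, 1 CPM in 5 libraries, a replicate block, only the groups compared, and leaving out each library.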

Additional observations from a re-analysis of the deposited data

Results flagged for a closer look

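In 72 group checks over 24 genes (the 8 and the 16 called pathway genes), 4 had a library whose gap to the nearest other took more than 0.71 of the group's range of log2 CPM; chance flags about 1 in 20 groups. PTGER4 in culture+EVs had library 4 above the rest, at 5.31 log2 CPM (gap 0.738 of the range), and its call did not depend on that library. HPGD in culture had library 2 at 0 counts (gap 0.756). PTGR2 and PTGES3 in culture had culture 3 below the rest, at 2.94 and 7.24 log2 CPM (gaps 0.871 and 0.838), and culture 3 is the library with few mitochondrial counts.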

How the results depend on the processing

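Each setting called PTGS2, PTGES, SLCO2A1 and PTGER4 higher and PTGDS lower in both cultures against fresh tissue, and none of the 7 genes in culture+EVs against culture. The genes called lower in culture+EVs against fresh tissue numbered 2 of 8 instead of 1 with limma-voom and with the replicate block, and 1 to 2 when 1 library was left out; in culture against fresh tissue they numbered 2 with limma-voom. The added gene was PTGS1 each time. The block also called PRXL2B in culture against fresh tissue (-1.33, adjusted p = 0.0101) and, among the named genes, changed no other call. The genes called higher in culture+EVs against fresh tissue numbered 5 of 8 instead of 4 with limma-voom, without fresh 3 and without culture+EVs 4. The gene added there was PTGER2. In culture+EVs against culture the sign turned for values that never passed the test: with limma-voom PTGES was 0.089 and PTGDS 0.027, and without the filter PTGDS was 1.4e-05. Leaving out 1 library gave -0.41 to 0.44 for PTGDS, -0.43 to 0.14 for PTGES (0.14 without culture 3) and -0.95 to 0.21 for PTGS1 (0.21 without culture 5). PTGES3 was lost under upper-quartile scaling in both cultures (adjusted p = 0.0584 and 0.0899) and when only the culture and fresh libraries were fitted (0.0741), and PTGES2 in culture with limma-voom (0.0794) and upper-quartile scaling (0.0629). The cause was not tested. HPGD, HPGDS, PTGDR and PLA2G10 had too few counts to test.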
